A study of Mus musculus with 9 samples.

Results

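This section describes 10 genes of blood vessel endothelium in the interscapular brown fat of mice. The genes were taken from a list of established endothelial symbols and matched to Ensembl mouse identifiers, and all 10 had a row among the 55416 gene rows of the count table. The rule itself used no measured value, but the genes and the lists below were chosen with earlier results of these data known, so shares set beside those of all genes are descriptions. The mice were C57BL/6J animals that expressed Cas9 and were 8 to 10 weeks old. The brown fat was injected with a viral vector, AAV8, that carried either the AAV8-Control sgRNA or the AAV8-UCP1 sgRNA, and the animals were housed at 22 °C for 14 days before RNA was sequenced from the whole tissue. Cas9, the vector, its labelled titre and the injection were common to all animals. The labels used here give neither the promoter that drives Cas9 nor the cells in which the guide acted.

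By the labels, 5 samples had the control guide and 4 the guide against Ucp1. The count table has 9 columns whose names are numbers ending in BAT, and these numbers occur in no label. The columns were therefore treated as 9 brown fat samples of 1 group, called A to I in ascending order of the number in their name, and none was assigned to a guide. Every range and correlation given here mixes both guides, and differences due to the guide cannot be told apart from other differences between animals. Column totals were 15460829 to 17909534 counts, and levels are given in CPM, the counts of a gene per 1000000 counts of its column. Messenger RNAs and other genes of the mitochondrial genome took 22.3% to 33.9% of the counts in a column. Of 12 listed brown adipocyte genes, Adipoq, an adipocyte hormone, was at 576 to 735 CPM over the 9 columns. Cidea, a lipid droplet protein of brown fat, was at 1265 to 1749 CPM. In that list 6 of the 12 genes had a highest-to-lowest ratio of at least 1.5, against 56.1% of the 7513 genes with a mean of at least 10 CPM. The widest span of the 12 was that of Ppargc1a, at 46.7 to 392 CPM.

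Endothelial cells line all blood vessels and are joined to each other by the cadherin Cdh5 and by adhesion proteins such as Pecam1 and Esam. Vascular endothelial growth factor acts on them through the receptors Kdr and Flt1, and the angiopoietins act through Tek, with Tie1 as a related receptor without a firmly known ligand of its own. Brown fat is among the most densely vascularized tissues, and its capillaries bring the oxygen and fatty acids that are burnt for heat. In RNA from whole tissue, fewer endothelial cells and less RNA per endothelial cell cannot be told apart.

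All 10 genes were detected in every column, with the lowest single count at 299 reads for Emcn. Together they held 0.0678% to 0.112% of all counts. The summed level of the 10 genes was lowest in column G with 678 CPM, had a median of 779 CPM and was highest in column B with 1121 CPM. The highest sum was 1.65 times the lowest, with a 95% interval of 1.62 to 1.69 from counting error alone. Without column B this ratio was 1.52. Columns B and F stood above the median of all 10 genes, column I above that of 9 and column C above that of 8, whereas columns E, G and H were above the median of none.

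Gene positions below are those of GRCm38. The junction genes differed in how far they varied. Cdh5 (ENSMUSG00000031871, chr8:104101625-104144511, plus strand), the cadherin of endothelial junctions, was lowest in column H with 140 CPM, had a median of 159 CPM and reached 226 CPM in column B. Pecam1 (ENSMUSG00000020717, chr11:106654217-106750628, minus strand), an adhesion protein of the cell borders also known as CD31, ranged from 60.5 CPM in column G through a median of 77.8 CPM to 116 CPM in column B. For both genes columns B and F were the highest. For Cdh5 they were set apart from the rest, whereas for Pecam1 columns I and C followed closely at 98.5 and 95.8 CPM. Esam (ENSMUSG00000001946, chr9:37528078-37538319, plus strand), an adhesion molecule of tight junctions, ranged from 25.4 CPM in column D through a median of 39.4 CPM to 48.8 CPM in column C. Esam was the member whose order of columns was least like the others, since its lowest column was the median one for Cdh5 and its level in column B was near its own median. Pecam1 counts were 0.404 to 0.564 of the Cdh5 counts of the same column, and Esam counts were 0.160 to 0.282 of them.

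The receptors for vascular endothelial growth factor differed in spread. Kdr (ENSMUSG00000062960, chr5:75932827-75978458, minus strand), the main signalling receptor, was the least variable of the 10 genes, with 116 CPM in column G, a median of 148 CPM and 168 CPM in column B, a ratio of highest to lowest of 1.45. Flt1 (ENSMUSG00000029648, chr5:147561604-147726011, minus strand), which binds the same ligand and is also made in a soluble form, ranged from 80.5 CPM in column G through a median of 129 CPM to 180 CPM in column B, a ratio of 2.24. Both receptors thus had the same lowest and the same highest column. The ratio of Flt1 to Kdr counts within a column, which does not depend on scaling, ranged from 0.696 in column G through a median of 0.879 to 1.09 in column H, and it was above 1 in 2 of 9 columns.

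Of the angiopoietin receptor pair, Tie1 was counted more often than Tek in all 9 columns. Tek (ENSMUSG00000006386, chr4:94739289-94874976, plus strand), the receptor itself, ranged from 25.7 CPM in column A through a median of 36.0 CPM to 42.6 CPM in column F. Tie1 (ENSMUSG00000033191, chr4:118471191-118490061, minus strand) ranged from 36.5 CPM in column E through a median of 50.7 CPM to 76.3 CPM in column B. Columns B and F were the highest 2 for both genes, and columns A and E the lowest 2. The ratio of Tek to Tie1 counts was 0.548 in column B, had a median of 0.629 and was 0.782 in column D. Eng (ENSMUSG00000026814, chr2:32646595-32682669, plus strand), a coreceptor for ligands of the TGF-beta and BMP families, ranged from 116 CPM in column E through a median of 145 CPM to 200 CPM in column B.

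The last 2 members were the least abundant by count. Emcn (ENSMUSG00000054690, chr3:137341067-137432185, plus strand), a sialomucin of capillary and venous endothelium, ranged from 16.7 CPM in column E through a median of 26.0 CPM to 36.0 CPM in column B. Egfl7 (ENSMUSG00000026921, chr2:26580014-26593120, plus strand), a protein that endothelial cells secrete into the vessel matrix, ranged from 16.9 CPM in column E through a median of 26.8 CPM to 38.9 CPM in column F, the widest span of the 10 genes with a ratio of 2.31. Emcn and Egfl7 shared their lowest column with Tie1 and Eng. Egfl7 is also the host gene of a microRNA that is abundant in endothelium, shown here because the gene's reads come from the same transcription unit. Its mature sequence in RefSeq (GRCm38.p6, chr2:26591402-26591423, plus strand, inside the annotated Egfl7 gene) has the seed, bases 2 to 8, in capitals.
mmu-miR-126a-3p: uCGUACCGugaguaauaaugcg
The row of the microRNA's gene, Mir126a, held 0 counts in all 9 columns, in libraries that were not made for small RNA. The counts of Egfl7 are uncertain, because its exons overlap those of other genes. The largest overlap with any single exon of the other gene is given here, so the total shared may be larger. On its own strand it was 125 bases for the protein-coding gene Gm20532 and 73 for Mir126a, both at 0 counts. On the opposite strand it was 58 bases for Mir126b, which reached 9 counts, and 64 for Agpat2. How reads in shared bases were counted, and with which strand setting, is not given in the sources used here. Agpat2, a triglyceride synthesis enzyme of adipocytes, reached 66630 counts in a column, against 302 to 629 counts for Egfl7. For Eng the largest such overlap was 61 bases, with an exon of the opposite-strand gene Fpgs. Fpgs reached 158 counts, against 2079 to 3349 counts for Eng.

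For every member the exact Poisson 95% intervals of its lowest and highest column did not overlap. These columns were picked as the extremes, and the share of all genes without such an overlap was not computed. Such intervals cover counting error only. Among the 10 genes 9 had a highest-to-lowest CPM ratio of at least 1.5, and 56.1% of the 7513 genes with a mean of at least 10 CPM did. The median ratio was 1.92 for the 10 genes and 1.53 for those 7513 genes. The exception was Kdr.

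Counts per gene depend on transcript length, so levels were compared between genes as CPM per kilobase of annotated exon. On this scale Cdh5 and Eng stood above the other 8 genes, with medians of 37.8 and 35.9 CPM per kb. Kdr followed at 16.4, Esam at 13.8, Pecam1 at 12.5, Tie1 at 10.3, Flt1 at 9.54, Tek at 7.63, Egfl7 at 7.49 and Emcn at 4.81 CPM per kb. Eng exceeded Kdr in 9 of 9 columns, Pecam1 exceeded Tie1 in 9 and Egfl7 exceeded Emcn in 9. The neighbours Esam and Pecam1, and Tek and Egfl7, were not separated, since the first of each exceeded the second in only 4 and 3 columns. With the length of the longest coding transcript in place of all exons, a choice added after the data were seen, Eng came before Cdh5, at medians of 42.4 and 39.7 CPM per kb, and Flt1 rose to 18.7 and Egfl7 to 19.3 CPM per kb, both above Tie1 at 12.0 and Tek at 7.72.

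**Figure D1:**
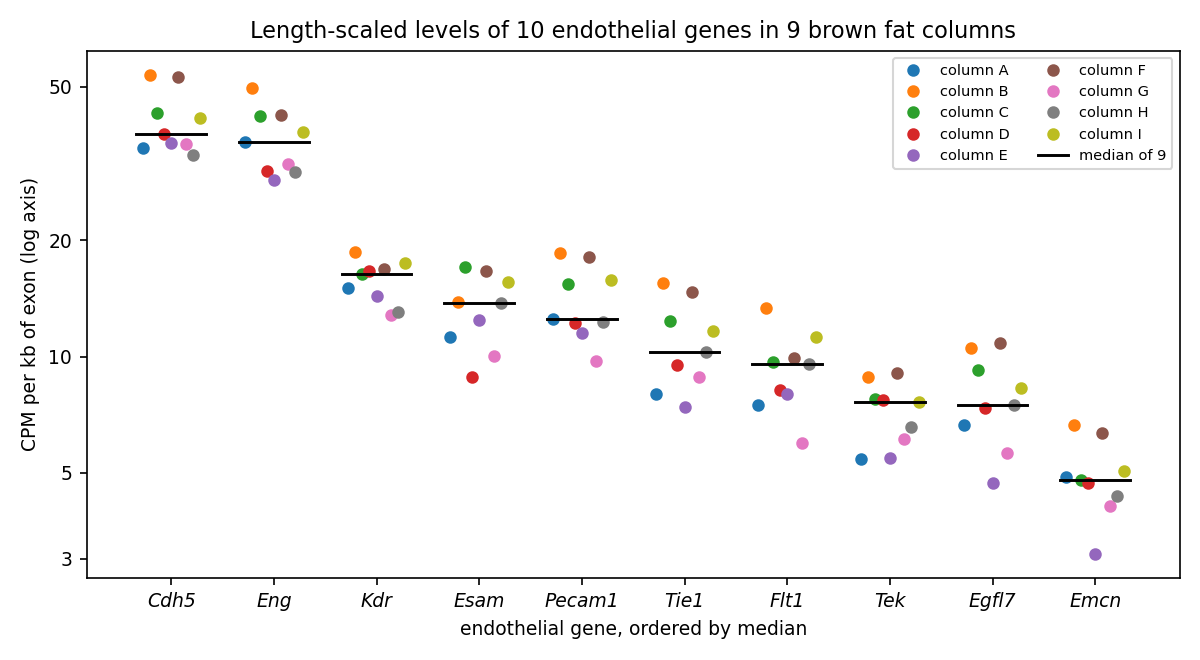
Length-scaled level (CPM per kb of annotated exon, log axis) of each of the 10 endothelial genes in each of the 9 brown fat columns, ordered by median. Points are columns and black lines are medians of 9. Cdh5 and Eng, with medians of 37.8 and 35.9, lie above the other genes, and columns B and F lie at or near the top for most genes.

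The levels of the 10 genes varied together across the columns. The largest gap between neighbouring columns was 45.6% of the log2 range, for Cdh5, so the pairs were correlated over all columns. Over 9 columns, Pearson's r of log2(CPM + 1) was above 0 for all 45 gene pairs, with a median of 0.796 and a range from 0.380 to 0.947, and the median Spearman rho was 0.783. An r of at least 0.8 was reached by 22 of the 45 pairs, against 2.05% of the 122590 relations between a member and any other gene with a mean of at least 1 CPM, whose median r was -0.06. The exact permutation test gave an unadjusted two-sided p below 0.05 and a positive r for 37 of 45 pairs, against 6.52% of all relations. No pair passed after Benjamini-Hochberg adjustment over all 122590 relations, in which 0% passed, and the smallest adjusted p from the exact permutation test was 0.0963. With 9 columns of mixed guides the correlations are therefore given as a description. The columns also share their totals, so a gene group that takes many counts in a column lowers the CPM of all others there.

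The closest pair was Tie1 and Egfl7, with r = 0.947 (exact permutation p = 0.000212, n = 9) and rho = 0.967 (exact permutation p = 0.000165). Tek and Tie1 followed with r = 0.934 (exact permutation p = 0.000513, n = 9) and rho = 0.917 (exact permutation p = 0.00131). The 2 growth factor receptors, Kdr and Flt1, had r = 0.759 (exact permutation p = 0.0171, n = 9) and rho = 0.850 (exact permutation p = 0.00607). Their adjusted p-values over all relations, by the exact permutation test, were 0.0963, 0.110 and 0.224. The weakest pair was Kdr and Esam at r = 0.380. Esam was the member least like the rest, with r = 0.630 between its level and the mean of the other 9 genes, while Pecam1 had the highest such value, 0.966.

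The count of close pairs depended on columns B and F. Without both, a setting added after the data were seen, the median r over the 45 pairs was 0.646, with a range from 0.163 to 0.907, and 5 pairs had an r of at least 0.8 over the remaining 7 columns. Leaving out column B alone left 13 such pairs and leaving out column F alone left 20. When instead the 2 columns farthest from the median of the first gene were left out of each pair, the median r was 0.747, with a range from 0.312 to 0.931, and 12 pairs had an r of at least 0.8. Those columns were columns B and F in 21 of the 45 pairs. For Tie1 and Egfl7 they were this pair of columns, and r was 0.907 without them. For Tek and Tie1 they were columns A and E, and r was 0.872, and for Kdr and Flt1 they were columns G and H, and r was 0.889.

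**Figure D2:**
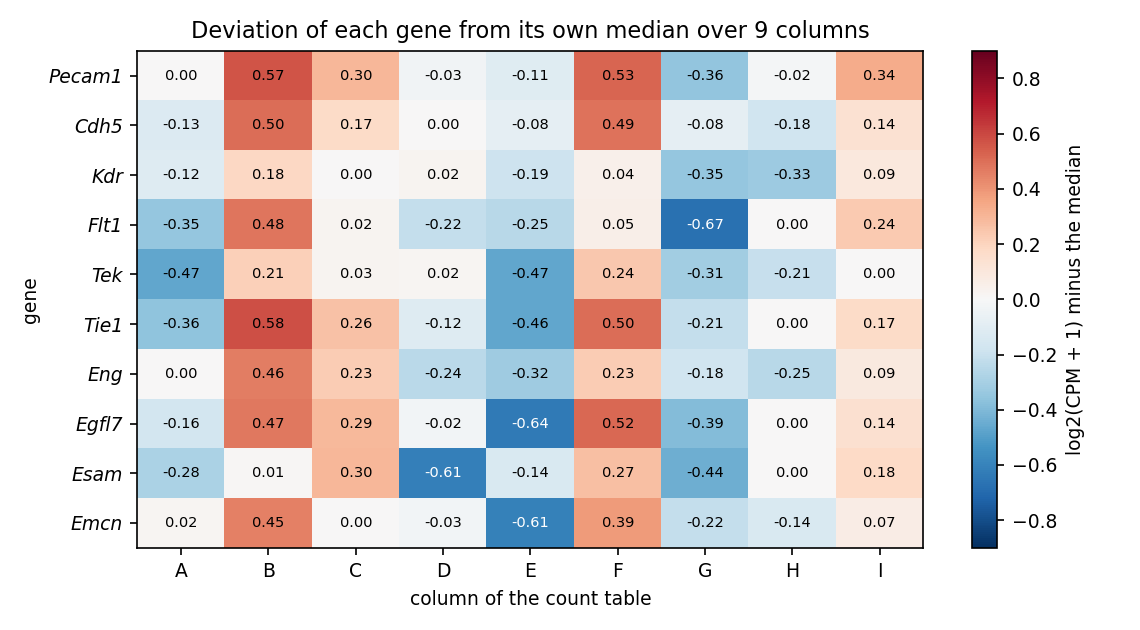
Deviation of each gene from its own median over the 9 columns, in log2(CPM + 1). Rows are the 10 genes and columns are the columns of the count table, with red above and blue below the median. Columns B and F are above the median for all 10 genes, and columns E and G are above it for none.

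**Figure D3:**
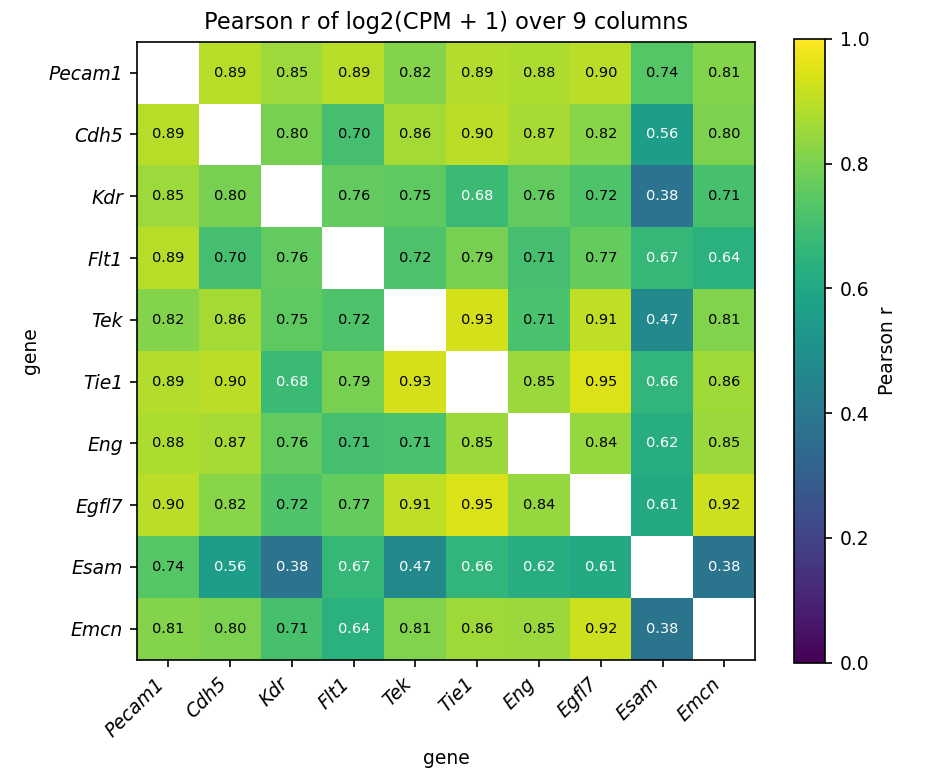
Pearson r of log2(CPM + 1) over 9 columns for each of the 45 gene pairs, with the diagonal left blank. All values are positive, the highest is 0.947 for Tie1 and Egfl7, and the row of Esam holds the lowest values, down to 0.380 with Kdr.

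The stretches before the members' annotated start sites were read for short motifs, and no link between motifs and levels was tested. RefSeq promoter windows (GRCm38.p6) were at hand for 7 of the 10 genes, with 9 windows. ETS factors are transcription factors found at many endothelial promoters. Letters that hold their core, AGGAAG or CGGAAG, were searched on both strands of the 250 bases before the start. Other forms of the core were not searched, so a window without a match may still hold one. A match was found for 5 of the 7 genes (Egfl7, Emcn, Eng, Flt1 and Tie1) and in 6 of 9 windows, against 39.2% of 32851 windows of the same length. Searched in the same way, the GATA letters AGATAA and the FOX letters TGTTTAC were in none of the 9 windows, against 9.99% and 3.17% of all windows. The SOX letters ACAAAG were found for 3 of the 7 genes (Egfl7, Eng and Tek) and in 3 of 9 windows, against 16.5% of all windows. A match describes these letters only and was not tested for binding. The windows of Flt1 (chr5:147726012-147726261, minus strand), Eng (chr2:32646345-32646594, plus strand) and Tek (chr4:94739039-94739288, plus strand) are shown because they overlap no annotated exon and include 2 genes with the ETS letters and 1 without them. They are printed in the direction of transcription, and capitals mark the ETS letters.
Flt1: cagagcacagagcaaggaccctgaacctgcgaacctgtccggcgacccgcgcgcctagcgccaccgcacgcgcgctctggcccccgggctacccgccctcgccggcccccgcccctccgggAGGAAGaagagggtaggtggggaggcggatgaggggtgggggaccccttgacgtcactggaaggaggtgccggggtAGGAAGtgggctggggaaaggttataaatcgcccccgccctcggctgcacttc
Eng: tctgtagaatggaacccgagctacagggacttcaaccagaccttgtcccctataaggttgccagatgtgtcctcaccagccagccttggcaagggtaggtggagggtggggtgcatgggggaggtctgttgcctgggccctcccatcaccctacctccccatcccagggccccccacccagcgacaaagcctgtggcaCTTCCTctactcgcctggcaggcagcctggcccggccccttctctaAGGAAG
Tek: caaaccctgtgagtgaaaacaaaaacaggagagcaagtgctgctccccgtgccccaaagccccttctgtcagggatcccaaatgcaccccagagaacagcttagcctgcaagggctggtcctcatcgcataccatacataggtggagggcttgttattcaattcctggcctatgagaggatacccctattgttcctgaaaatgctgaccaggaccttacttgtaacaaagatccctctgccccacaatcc
Flt1 and Eng each held 2 matches, beginning 129 and 53 bases before the start in Flt1 and 52 and 6 bases before it in Eng. Tek held none.

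To see which other genes moved with the members, an endothelial index was formed for each column as the mean of the 10 genes' deviations from their medians, in log2(CPM + 1). It ranged from -0.33 in column E to 0.39 in column B. The index was compared with each of 12250 other genes with a mean of at least 1 CPM, without a p-value. The largest gap of the index between neighbouring columns was 35.8% of its range. The gaps of the other genes were not checked, so an r with the index may compare clusters of columns. An r of at least 0.8 was found for 2.91% of them and an r of at most -0.8 for 4.45%. The median r was -0.06.

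Of 26 other pan-endothelial genes, 9 had an r of at least 0.8, and the median r was 0.759. The 9 were the transcription factors Sox17, Fli1 and Gata2, the guidance receptor Robo4, the receptor activity-modifying protein Ramp2, Clec14a, Mmrn2, Myct1 and Adgrl4. Ptprb, the phosphatase that acts on Tek, ranged from 77.9 to 144 CPM with r = 0.776. Palmd, the other most abundant gene of that list, went the other way, with 76.8 to 136 CPM and r = -0.308. With totals that leave out the mitochondrial genome and Ucp1, the count of genes at or above 0.8 was 16 of 26.

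Genes of vessel subtypes were next. Of 9 arterial genes with a mean of at least 1 CPM, 4 had an r of at least 0.8: the Notch ligand Dll4 at 0.970, Efnb2 at 0.910, Unc5b and Sema3g, with a median of 0.742 over the 9. Of 6 venous genes 1 did, the Efnb2 receptor Ephb4 at 0.915, which ranged from 26.9 to 51.5 CPM, and Lrg1 was at 0.773. Of 9 capillary genes 1 did, Gpihbp1, the protein that holds lipoprotein lipase at the capillary wall, at 0.873. The median over these 9 was lower, at 0.431. The summed level of the capillary list had r = -0.380, but Cd36 held most of that sum, with a mean of 1499 CPM against a median sum of 2112 CPM. Ly6c1 and Car4 were at 0.747 and 0.711, Aplnr at 0.431, Rgcc at 0.056 and Aqp7 at -0.313. Cd300lg, a surface protein of capillaries, was at 112 to 174 CPM with r = 0.663. Cd36, a fatty acid receptor that adipocytes also make, was the most abundant gene of the capillary list with 1166 to 1922 CPM and had r = -0.585, and Fabp5 had r = -0.812. Fabp5, a fatty acid carrier, is likewise made by other cells of fat. Lymphatic genes were low, with Prox1 under the 1 CPM minimum, and 0 of 5 reached 0.8. Flt4, which some blood capillaries also make, was the most abundant of them at 8.88 to 16.6 CPM, and Lyve1 was at 1.16 to 3.94 CPM.

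Genes of the cells around the vessels followed in part. Of 14 pericyte and smooth muscle genes 7 had an r of at least 0.8, with a median of 0.805. Rgs5, a pericyte regulator of G protein signalling, ranged from 165 to 329 CPM with r = 0.938. Des, an intermediate filament protein that skeletal muscle also makes, was at 97.0 to 263 CPM with r = 0.653. Notch3, Mcam and Ndufa4l2 were at 0.611, 0.665 and 0.648, and the pericyte proteoglycan gene Cspg4 at 0.112. Pdgfrb, the pericyte receptor for platelet-derived growth factor, and Kcnj8 were among the 7, as were the smooth muscle genes Acta2, Myh11, Tagln and Cnn1. Rgs5 counts were 1.11 to 1.61 times the Cdh5 counts in the same column, a ratio of highest to lowest of 1.45, and those of Pdgfrb were 0.188 to 0.279 times. The summed level of the 14 genes ranged from 568 CPM in column E to 1091 CPM in column F.

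**Figure D4:**
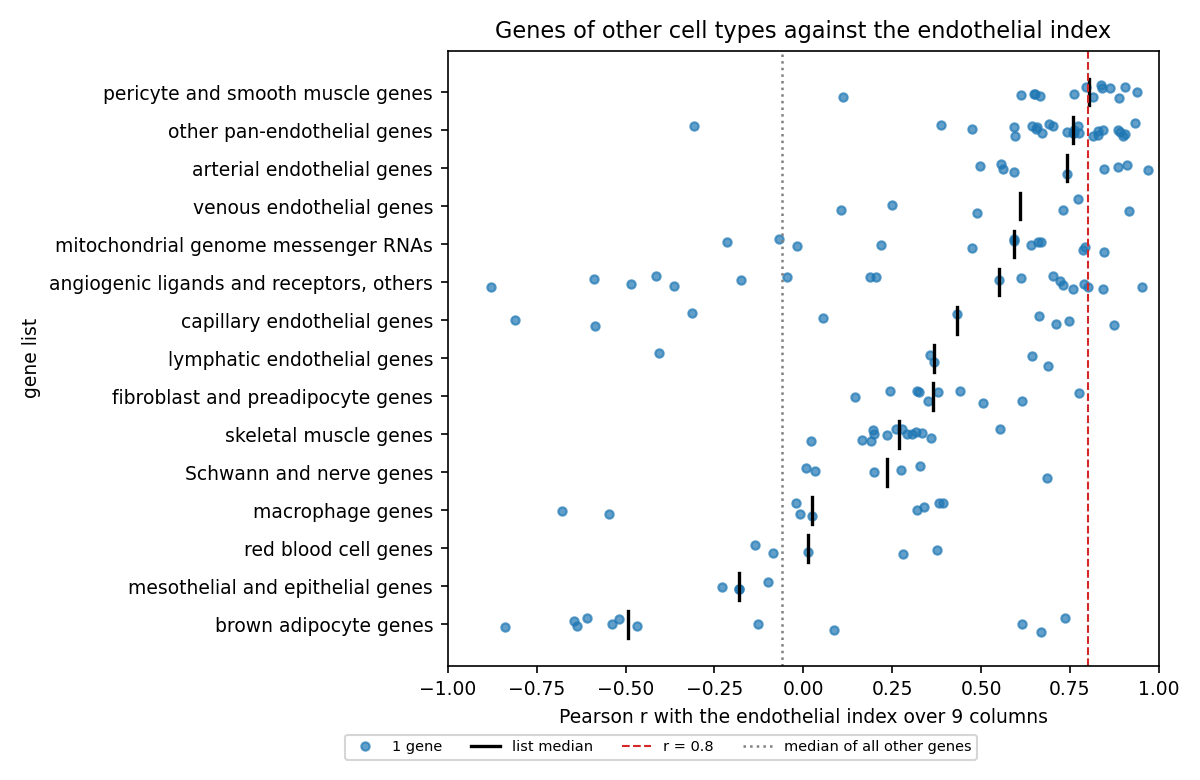
Pearson r with the endothelial index over 9 columns for each gene with a mean of at least 1 CPM, by gene list. Each point is 1 gene, black lines are list medians, the dashed line marks r = 0.8 and the dotted line the median of all other genes, -0.06. Pericyte and smooth muscle genes (median 0.805) and other pan-endothelial genes (median 0.759) lie farthest to the right.

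Other cell types moved less with the members. Skeletal muscle, which borders the dissected fat and has endothelium of its own, had 14 of 14 marker genes above the minimum, and their sum ranged from 264 CPM in column C to 5015 CPM in column F. Its most abundant genes, the calcium pump Atp2a1 and the actin Acta1, reached 1171 and 1032 CPM. None of the 14 reached an r of 0.8, their median r was 0.269 and none was at 0 in any column. The column with the most muscle RNA was thus 1 of the 2 with the most endothelial RNA, while column B, the other, had a muscle sum within the range of the remaining columns, and the part of muscle in the result was not tested. Fibroblast and preadipocyte genes had a median r of 0.365, Schwann cell and nerve genes of 0.237, macrophage genes of 0.02, red blood cell genes of 0.01 and mesothelial and epithelial genes of -0.181, with 0 genes at or above 0.8 in each list. The most abundant of these genes were the collagen gene Col3a1 at 29.1 to 126 CPM and Dcn at 66.9 to 97.9 CPM for fibroblasts, S100b and Mbp for Schwann cells, Lyz2 and C1qb for macrophages, Hba-a1 and Hbb-bs for red blood cells and Krt18 and Krt19 for epithelium. All 8 lymphocyte genes were under the minimum, and their summed level was 1.05 to 6.30 CPM, led by Cd4 and Nkg7. Of 12 brown adipocyte genes none reached 0.8 and Elovl3, a fatty acid elongase, was at -0.838. Their median r was -0.493, with the lipase Pnpla2 at -0.126 and the fatty acid carrier Fabp4 at -0.645. The list was mixed, since the respiratory chain genes Cox8b and Cox7a1 were at 0.736 and 0.668, Adipoq at 0.616 and Cidea at 0.087. With totals that leave out the mitochondrial genome and Ucp1, 3 of the 12 reached 0.8.

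Mitochondrial RNA moved with the members in its sum, but not in each gene. The summed level of the 13 mitochondrial messenger RNAs had an r of 0.751 with the index. Of the 13 genes 1 reached 0.8, the complex I subunit mt-Nd1 at 0.846, and the median r was 0.593. The most abundant, mt-Co1 and mt-Cytb, had r of 0.661 and 0.792. Other abundant genes followed less or not at all: mt-Nd2 and mt-Nd5, with means of 40558 and 36015 CPM, had r of 0.474 and -0.02. The lowest r was -0.214, for mt-Nd4l. Counts were uneven in this list, since mt-Co2 and mt-Co3 had means of 29.1 and 19.5 CPM, against 67575 CPM for mt-Co1. The sum therefore rests on part of the list. Since mitochondrial RNA took up to 33.9% of a column, a high share lowers the CPM of every other gene, the members included. With totals that leave it and Ucp1 out, the highest sum of the 10 genes was 1.85 times the lowest and 36 of 45 pairs had an r of at least 0.8. The part of the mitochondrial share in the correlations was not tested beyond this.

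Among the 19 other angiogenic ligands, receptors and regulators with a mean of at least 1 CPM, 3 had an r of at least 0.8 and 1 an r of at most -0.8. Vegfa, the ligand of Kdr and Flt1, was abundant at 288 to 431 CPM and had r = 0.721. Vegfb, which binds Flt1, was at 155 to 232 CPM with r = 0.758. Vegfc and Vegfd were scarce, at 0.949 to 2.09 CPM and 3.77 to 7.71 CPM. Of the Tek ligands, Angpt1 was at 5.64 to 11.5 CPM with r = -0.05 and Angpt2 at 0.391 to 2.97 CPM with r = 0.701. Angpt1 was counted 2.06 to 21.6 times as often as Angpt2, and more often in 9 of 9 columns. Each end rested on 1 column: without column C, where Angpt2 had 48 counts, the lowest ratio was 4.89, and without column E, where it had 7, the highest was 10.4.

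The 3 genes at or above 0.8 were the Notch receptor Notch4 (0.952), the BMP receptor Acvrl1 (0.843), which acts with Eng, and Pdgfb (0.801), by which endothelium recruits pericytes. Notch1, a receptor of many cell types, was at 45.5 to 74.8 CPM with r = 0.614, and the Notch ligand Jag1 was at 12.5 to 19.8 CPM with r = 0.187. The coreceptors Nrp1, at 98.2 to 164 CPM, and Nrp2, at 87.2 to 177 CPM, had r of 0.550 and -0.363. Hif1a, an oxygen-regulated transcription factor, was the gene at or under -0.8, with 42.8 to 81.5 CPM and r = -0.879. Epas1, its relative that is high in endothelium and in adipocytes, was at 586 to 865 CPM with r = -0.486. Cxcl12, a chemokine, was at 50.1 to 96.4 CPM with r = 0.791, Apln, the ligand of the apelin receptor, at 1.62 to 14.5 CPM with r = 0.732, and the growth factors Fgf2 and Tgfb1 had r of -0.589 and 0.205.

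The 10 genes outside the list whose pattern over the 9 columns was most like the index, among those with a mean of at least 10 CPM, had r from 0.950 to 0.980. They were Slc26a10, Sparcl1, Rasgrp2, Dll4, Palm, Stard8, Ccm2l, Fgd5, Notch4 and Podxl. Sparcl1, a secreted matrix protein, was the most abundant of them with 105 to 218 CPM and r = 0.975. Podxl, a sialomucin of the vessel lumen, followed at 71.9 to 123 CPM. Slc26a10 was the closest, at 10.1 to 29.9 CPM and r = 0.980.

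The relation of the 10 genes to Ucp1, the uncoupling protein of brown fat mitochondria and the target of the guide, was not tested. Its levels fell into 2 separate clusters, 4 columns at 396 to 606 CPM and 5 at 2704 to 4620 CPM, and the gap between them was 60.9% of the whole range of log2(CPM + 1). A gap over 50% was set as the limit for a pooled correlation, since such a correlation would compare the clusters, and neither holds the 6 columns set as the minimum for a correlation within it. On CPM without the log the gap was 49.7%. The clusters were not taken as guide groups, and the members were not compared between them. The Ucp1 level and the summed level of the 10 genes are given side by side for each column among the closing observations.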

How the data were processed

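RNA from interscapular brown fat of 9 samples was measured. The authors deposited 1 table of whole-number read counts per Ensembl gene, with 15460829 to 17909534 counts per column. FastQC, STAR, DESeq2 and the build GRCm39 are named in the submitters' processing notes without roles or versions. Annotation release and strand setting were not given in the sources used here. Of the 55416 rows, 52083 matched a symbol. Gene lengths and positions came from GENCODE M21 (GRCm38), an older build than the one named there.

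Column names match no sample, so all 9 columns formed 1 group, BAT, from the tissue in the labels, and no guide was assigned. No 2 columns were identical. CPM used the column total, and correlations used log2(CPM + 1) with exact two-sided permutation tests over all pairings, adjusted by Benjamini-Hochberg over all member-by-gene relations with a mean of at least 1 CPM. The code was tested on simulated data. Genes were named by rule: the 10 members, Ucp1, the 10 most index-like genes with a mean of at least 10 CPM, the 2 most abundant genes of each list and the ligands and receptors with a mean of at least 1 CPM. Further genes of the lists, some at or beyond an r of 0.8 and others short of it, were named outside this rule after their values were seen. Members and lists were chosen with earlier results of these data known. Alternatives were edgeR 4.0.16 TMM scaling, DESeq2 1.42.0 size factors, totals without the mitochondrial genome and Ucp1, a pseudocount of 0.5, no log, Spearman's rho, all genes with any count, and each column left out. Python 3.11.15 with numpy 2.4.6 and numba 0.67.0 was used.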

Additional observations from a re-analysis of the deposited data

Results flagged for a closer look

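Of 55 quantities checked for a column far from the others (the named genes and the summed lists), 3 had one, and chance alone would mark about 1 in 20. Angpt2 was at 2.97 CPM in column C, above the other 8 columns by more than the range among them. The summed macrophage genes reached 131 CPM in column H, against a median of 72.6 CPM over the columns. The summed lymphocyte genes reached 6.30 CPM in the same column, against a median of 1.76 CPM. None of the 10 endothelial genes had such a column.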

How the results depend on the processing

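The median r over the 45 pairs stayed positive under every alternative run, from 0.646 without both columns B and F, which left 5 pairs with an r of at least 0.8, to 0.873 with totals that leave out the mitochondrial genome and Ucp1, and 0 pairs passed the adjusted threshold in any of those for which it was computed, which leaves out that of both columns. With the totals named 36 pairs had an r of at least 0.8, the ratio of the highest to the lowest member sum was 1.85, and the counts of genes with an r of at least 0.8 were 16 for the other pan-endothelial list and 3 for the brown adipocyte list. The cause was not tested beyond the change of totals. Leaving out each column in turn gave 13 to 27 pairs, a ratio of 1.52 to 1.65, and 0 to 1 brown adipocyte and 0 to 1 skeletal muscle genes at or above 0.8. On CPM with no log the Ucp1 gap was 49.7% of the range, just under the limit of 50% used to speak of clusters. On log2(CPM + 1) the gap was 60.9% to 73.2% with each column left out. No correlation with Ucp1 was computed under any setting, so Spearman's rho and the wider gene table were not run for it. The alternatives for the gene lists and that without both columns were added after the data were seen. No paired analysis was run, since the labels name no pairs of samples. Depth limits the scarce genes most: Angpt2 and the lymphocyte genes rest on few counts per column.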

Other observations

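The Ucp1 level of each column was 459 CPM in column A, 3848 in column B, 4620 in column C, 2704 in column D, 396 in column E, 3652 in column F, 606 in column G, 445 in column H and 3937 in column I. The values fall into 2 separate clusters of 4 and 5 columns. The summed level of the 10 endothelial genes was 753 CPM in column A, 1121 in column B, 929 in column C, 779 in column D, 707 in column E, 1028 in column F, 678 in column G, 757 in column H and 933 in column I. Markers of mesothelium and epithelium, which are not part of brown fat lobules, summed to 0.175 CPM in column D and 43.3 CPM in column C. The median was 6.22 CPM over the 9 columns. The mesothelial markers Msln and Upk3b reached only 0.0598 and 0.0585 CPM, so the larger sums rest on the epithelial genes, with Krt19 up to 20.4 CPM.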
